A study of Mus musculus with 9 samples.

Results

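Cycling cells without markers of the GABAergic lineage were examined in single-cell RNA sequencing of the mouse neocortex at E18.5. A cell was counted as cycling when at least 3 of 6 cell cycle genes (*Top2a*, *Mki67*, *Cenpf*, *Ube2c*, *Ccnb1* and *Nusap1*) were detected, that is, had at least 1 unique molecular identifier (UMI). The cells were thus chosen by the detection of 10 genes, since a cell was counted as Dlx-negative only when *Dlx1*, *Dlx2*, *Gad1* and *Gad2* all had none. Cells with over 1% of their UMIs on haemoglobin genes were removed first. The rule left 620 cells of 19686 kept cells in 9 libraries. For comparison, 12276 kept cells had none of the 6 cycle genes and are called non-cycling below, and 516 had at least 3 of them together with *Dlx1* or *Dlx2* and are called cycling Dlx cells. The 620 cells shared no cell barcode between libraries, whereas 253 of the 19433 kept barcodes occurred in 2 libraries.

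Each library was made from the microdissected neocortex of 1 embryo, a WT or KO littermate of the Tcf4ex4WT/lacZ line. KO embryos carry a *lacZ*/neomycin cassette before exon 4 on both alleles in every cell. TCF4B is lost in these embryos, and the short form TCF4A is still made. TCF4 is a basic helix-loop-helix transcription factor of the E-protein class. The study looked for transcription factors that act with TCF4 as connections between the hemispheres form. WT2, WT3 and WT4 were compared here with KO4 and KO5, which held 500 of the 620 cells among 15479 kept cells. There were 75, 90 and 151 of them in the WT, and 132 and 52 in the KO. WT5, KO1 and KO2 held 38, 66 and 15, and WT1 held 1, so WT1 has no level below. Values of single libraries follow the order WT2, WT3, WT4 for the WT and KO4, KO5 for the KO.

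Several libraries stood apart. In non-cycling cells *Tcf4* was at 12.6 to 13.5 UMIs per 10000 UMIs of a cell in the WT, and at 9.58 and 7.57 in the KO. The library labelled WT5 (7.38) and the small library labelled WT1 (4.66) lay below KO4. The libraries labelled KO1 (18.3) and KO2 (13.1) lay at or above the WT level. The study left out samples with few cells and a WT animal with *Tcf4* below the KO. WT1, KO1 and KO2 had 127, 332 and 118 kept cells. These libraries and WT5 entered no main comparison, so differences in *Tcf4* are not independent of the choice of libraries. The reads come from 3′ ends and do not cover the altered part, so the level of *Tcf4* does not test the insertion itself. Library depth ranged from 3487769 to 29767293 UMIs over the 5 compared. Haemoglobin removed 0.42% to 1.34% of cells in the 3 WT libraries, 13.9% in KO4 and 40.4% in KO5. KO5 had no *Xist* UMI and 545 UMIs on 4 genes of the Y chromosome, whereas the other libraries had *Xist* and none of the Y genes, so sex cannot be told apart from the KO5 library.

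In the late embryonic cortex, cycling cells outside the GABAergic lineage are chiefly radial glia, intermediate progenitors and precursors of oligodendrocytes. Radial glia divide at the ventricle, self-renew and generate neurons directly or through intermediate progenitors, which express *Eomes* and divide further from the ventricle. Late in gestation radial glia begin to turn to gliogenesis. Genes needed for DNA replication are transcribed before and during S phase largely under E2F factors. Genes needed for mitosis are transcribed later, in G2 and M phase, when the MuvB complex with B-MYB and FOXM1 acts on promoters that hold a cell cycle homology region (CHR), often next to CCAAT boxes bound by NF-Y. When a cell leaves the cycle, both groups are repressed.

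The 6 cycle genes that define the cells are of the mitotic group. The 150 bases before the annotated start of each are shown because genes of this group are known to be co-regulated through the elements searched for. They are from RefSeq, mouse build GRCm38.p6, 5′ to 3′ on the strand of the gene. Capitals mark matches, on either strand, to the CHR (TTTGAA or TTCGAA, the latter a palindrome), the CCAAT box (CCAAT) or an E2F site (TTCCCGC or TTGGCGC).
*Top2a*, chr11:99024190-99024339, minus strand: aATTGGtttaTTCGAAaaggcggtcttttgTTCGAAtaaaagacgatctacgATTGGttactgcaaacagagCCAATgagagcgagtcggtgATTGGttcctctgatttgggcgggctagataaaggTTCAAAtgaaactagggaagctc
*Mki67*, chr7:135716380-135716529, minus strand: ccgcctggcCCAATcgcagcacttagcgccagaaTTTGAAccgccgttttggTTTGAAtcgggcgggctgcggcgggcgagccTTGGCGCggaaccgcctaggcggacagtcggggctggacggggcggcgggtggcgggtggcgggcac
*Ube2c*, chr2:164769779-164769928, plus strand: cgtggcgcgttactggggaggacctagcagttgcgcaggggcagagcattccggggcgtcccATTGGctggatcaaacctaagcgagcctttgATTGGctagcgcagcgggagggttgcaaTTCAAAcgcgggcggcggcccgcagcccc
*Cenpf*, chr1:189688087-189688236, minus strand: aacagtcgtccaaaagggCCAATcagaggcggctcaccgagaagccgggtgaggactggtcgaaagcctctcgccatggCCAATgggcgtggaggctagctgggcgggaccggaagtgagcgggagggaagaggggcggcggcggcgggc
*Ccnb1*, chr13:100786487-100786636, minus strand: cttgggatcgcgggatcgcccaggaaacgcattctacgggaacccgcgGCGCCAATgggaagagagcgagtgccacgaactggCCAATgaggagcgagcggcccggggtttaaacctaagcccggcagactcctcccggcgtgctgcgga
*Nusap1*, chr2:119618148-119618297, plus strand: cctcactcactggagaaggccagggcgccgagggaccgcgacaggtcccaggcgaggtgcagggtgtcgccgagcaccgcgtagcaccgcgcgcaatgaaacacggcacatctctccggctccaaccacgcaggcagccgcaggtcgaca
The stretch of *Top2a*, which encodes the topoisomerase that untangles sister chromatids, held 3 CHR matches and 4 CCAAT boxes. *Mki67*, the gene of the proliferation antigen Ki-67, held 2 CHR matches, 1 CCAAT box and 1 E2F site. *Ube2c*, encoding the ubiquitin-conjugating enzyme of the anaphase-promoting complex, held 1 CHR match and 2 CCAAT boxes. *Cenpf*, a kinetochore protein gene, held 2 CCAAT boxes, and its single CHR match lay past the start site. *Ccnb1*, encoding the mitotic cyclin B1, held 2 CCAAT boxes, 1 of which overlapped its single E2F match. *Nusap1*, a spindle protein gene, held no match. In windows of 250 bases before to 50 bases after the start, CHR and CCAAT matches occurred together in 4 of these 6 genes and in 7.53% of all 32851 windows. Of 44 windows of a list of further mitosis genes (41 of its genes were matched), 70.5% held both. Of 34 windows of S phase and DNA replication genes (27 matched), 11.8% held both, whereas an E2F match was held by 52.9% of them, by 9.09% of the mitosis windows and by 6.81% of all windows. Letter matches describe the windows only.

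The 6 genes chose the cells, so their values are given as a description. A level is the number of UMIs of a gene per 10000 UMIs of its cell, averaged over the cells of a library. *Top2a* was at 10.4, 11.2 and 6.68 in the WT and at 3.59 and 2.75 in the KO. *Mki67* was at 3.42, 5.33 and 4.03 in the WT and at 2.45 and 1.78 in the KO libraries. *Nusap1* was at 7.25, 5.01 and 1.79 in the WT and at 1.25 and 1.72 in the KO. Within the cells that met the rule, the 2 KO libraries thus lay below the lowest WT library for most of these genes, and *Ccnb1* was the one of the 6 whose groups overlapped (5.01, 6.26 and 2.85 against 2.56 and 2.99). The library labelled WT5 was at 2.23 for *Top2a*, on the side of the KO. KO1 (8.41) and KO2 (7.83) lay within the WT range.

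How far a cell passed the rule also differed. Exactly 3 of the 6 genes were detected in 18.7%, 17.8% and 37.7% of the cells in the WT, and in 62.1% and 67.3% in the KO (78.9% in WT5). All 6 were detected in 22.7%, 46.7% and 26.5% of the WT cells and in 1.52% and 1.92% of the KO cells. Just inside the rule, at 3 genes, the summed level of the mitosis list was 71.6, 69.8 and 56.8 in the WT and 50.8 and 36.9 in the KO libraries. Just outside, at 2 genes, it was 27.9, 38.9 and 20.01 in the WT and 28.0 and 22.4 in the KO. Without any of the 6 it was 10.6, 11.4 and 10.2 in the WT and 14.0 and 17.6 in the KO, so non-cycling KO cells had the higher level and cycling KO cells the lower one. The cells were also less deep in the KO, with a median of 2722 and 2365.5 UMIs per cell against 3289, 5191 and 5937 in WT2, WT3 and WT4.

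**Figure D1:**
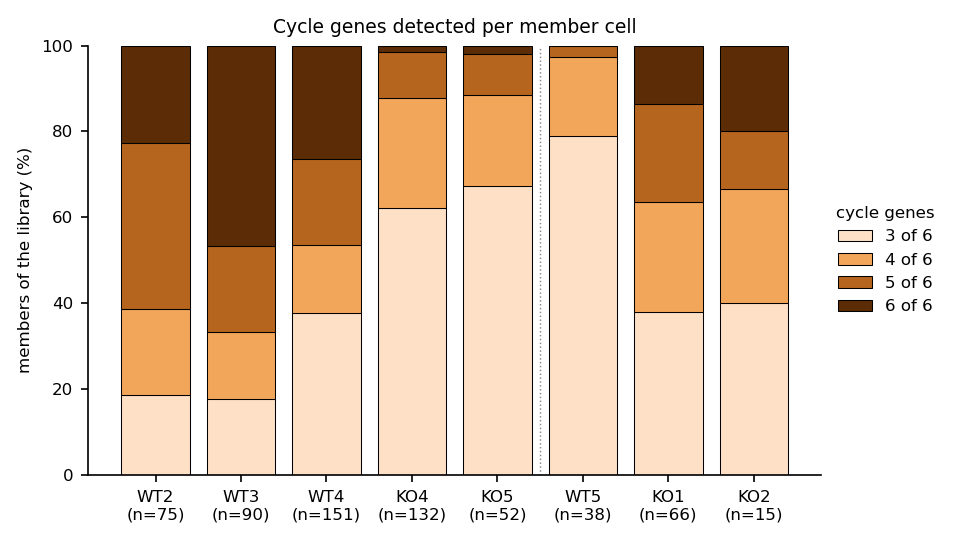
Share of the cycling Dlx-negative cells of each library (y axis, percent) in which 3, 4, 5 or all 6 of the cycle genes were detected. Cells with exactly 3 make up 17.8% to 37.7% in the WT and 62.1% and 67.3% in the KO.

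Transcripts of cycle genes were also found in cells that are not cycling by this rule. Among cells with at least 4 of 5 neuronal genes (*Mef2c*, *Neurod2*, *Neurod6* and *Stmn2* among them) and fewer than 3 cycle genes, *Top2a* was detected in 6.19%, 5.05% and 6.24% in the WT and in 10.2% and 11.2% in the KO. *Ube2c* was detected in 5.44%, 5.17% and 8.16% and in 13.8% and 15.1% of these cells, in the same order. In the cycling Dlx-negative cells *Top2a* was detected in 88.0%, 88.9% and 78.1% of the WT cells and in 72.7% and 59.6% of the KO cells. The neuronal genes were in turn found in cycling cells. Of the cycling Dlx-negative cells, 14.7%, 16.7% and 26.5% held at least 4 of the 5 neuronal genes in the WT, and 47.7% and 48.1% did in the KO. With neuronal genes in so many of them, the cells as a whole are not called progenitors here. Genotype differences without such cells are given below.

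Against non-cycling cells of the same libraries, the rest of the cycle program stood highest in the cycling Dlx-negative cells. This contrast is close to the rule and carries no test. Over 1755 genes that reached a mean of 1 in either group of cells, the largest median log2 difference over the 5 libraries was that of *Hmgb2*, a chromatin protein gene of dividing cells, at 3.46 (mean level 22.2 against 1.85). *Cks2* (2.64), *2810417H13Rik* (2.37), *Cenpa* (2.24) and *Birc5* (2.07) came next, followed by *H2afz* (1.95, 41.3 against 11.2) and *Cdk1* (1.88), the kinase that starts mitosis. Genes of low level pass this filter through the cycling cells alone, so lists are given here by their summed level. The mitosis list summed to 135, 174 and 113 in the WT and to 65.7 and 54.5 in the KO, against 10.1 to 17.4 in the non-cycling cells of the 5 libraries. The S phase list summed to 12.4 to 41.0 against 7.17 to 8.71.

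Radial glia genes came with the cycle genes. The radial glia list summed to 113, 139 and 125 in the WT and to 79.6 and 77.3 in the KO, against 29.9 to 38.4 in the non-cycling cells of the 5 libraries. *Fabp7*, the brain fatty acid binding protein gene of radial glia, was at a mean of 50.1 against 14.0 (median log2 difference 1.69). *Vim*, encoding the intermediate filament vimentin, had a median log2 difference of 1.53. In contrast, the list of glutamatergic neurons was lower than in non-cycling cells in all 5 libraries, with sums of 25.1 to 56.2 against 73.8 to 83.3. *Tubb3*, the neuronal β-tubulin gene, had the lowest value of all genes compared, at -1.45 (10.4 against 23.2), followed by *Stmn2* at -1.34 and *Mllt11* at -1.29.

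**Figure D2:**
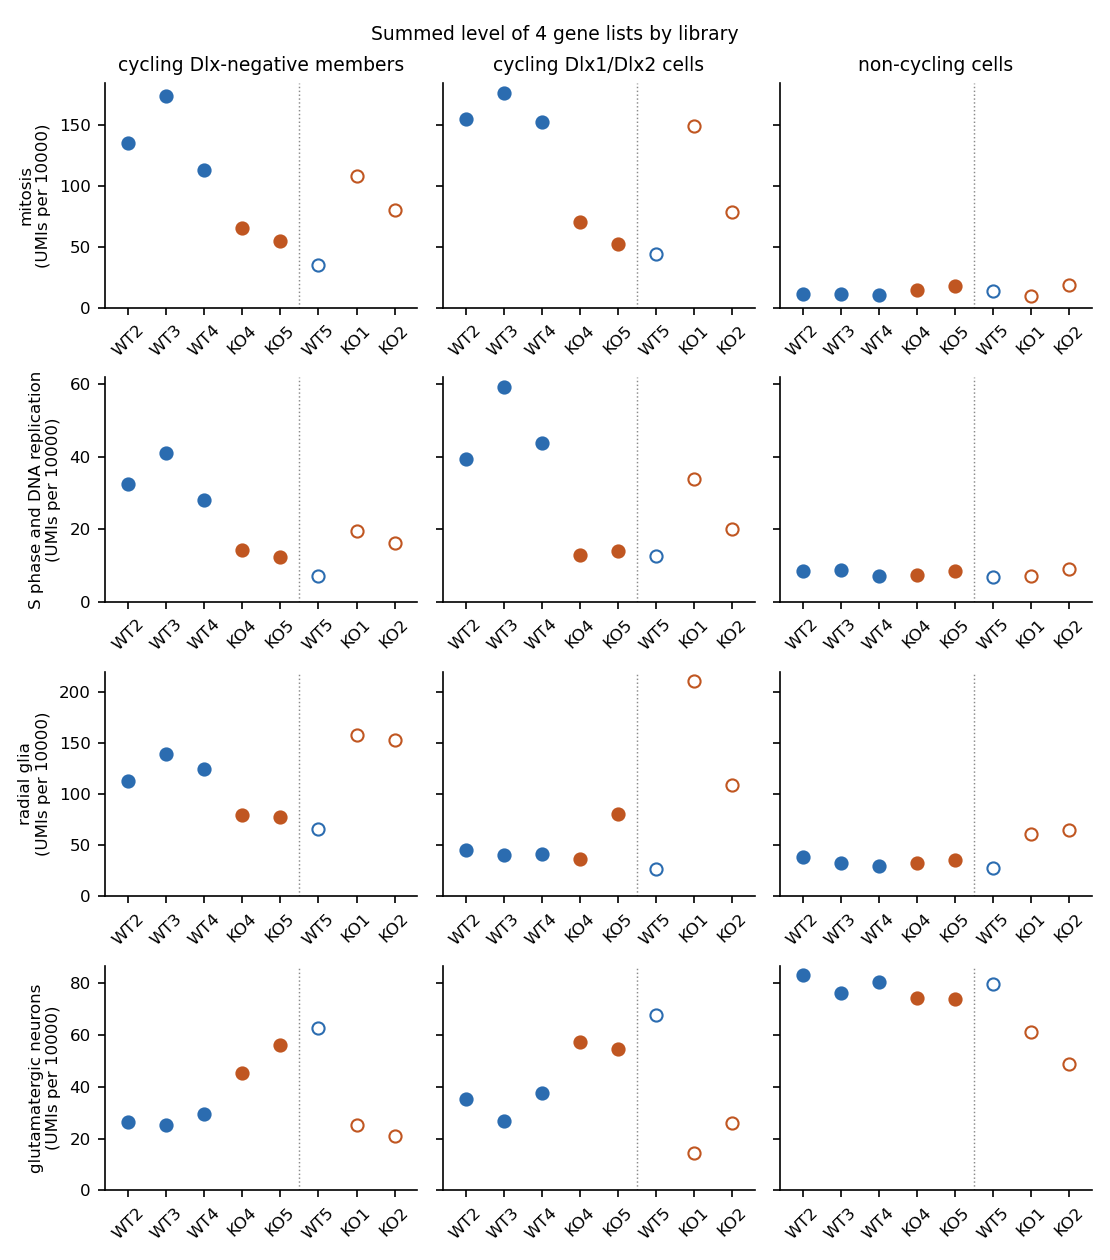
Summed level of gene lists (UMIs per 10000 UMIs of a cell) in cycling Dlx-negative cells, non-cycling cells and cycling Dlx cells of each library. Filled circles are the 5 libraries compared, open circles WT5, KO1 and KO2, blue those labelled WT and orange those labelled KO. In cycling Dlx-negative cells the mitosis list was at 113 to 174 in the WT and at 65.7 and 54.5 in the KO.

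Cycling Dlx cells, which are dividing cells of the GABAergic lineage, had the cycle program too and differed in identity, again given without a test. The mitosis list summed to 155, 176 and 152 in cycling Dlx cells of the WT and to 70.1 and 52.2 in those of the KO. In cycling Dlx-negative cells it summed to 135, 174 and 113 and to 65.7 and 54.5. The S phase list summed to 39.6, 59.4 and 43.7 and to 12.9 and 14.0 in cycling Dlx cells. In cycling Dlx-negative cells it was at 32.6, 41.0 and 28.2 and at 14.2 and 12.4. The genes most above the cycling Dlx cells were glial: *Fabp7* (median log2 difference 1.69), *Id3* (1.39), *Mt3* (1.36), *Ptn* (1.30), *Slc1a3* (1.16), which encodes the glutamate transporter GLAST, and the Notch target *Hes5* (1.0). KO5 went the other way for *Fabp7* (36.1 against 43.3), *Mt3* (6.79 against 8.85), *Slc1a3* (1.34 against 1.57) and *Hes5* (0.654 against 1.25), and held 16 cycling Dlx cells only. Lower were genes of the GABAergic lineage beyond the 4 of the rule, among them *Dlx6os1* (-1.32) and *Dlx5* (-1.20). In KO5 *Dlx6os1* went the other way (0.534 against 0.444). *Ccnd2*, encoding the G1 cyclin D2, had a median log2 difference of -1.08 (10.7 against 27.6).

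The cycling Dlx-negative cells were not uniform. *Eomes* or *Neurog2*, the genes of intermediate progenitors, had a UMI in 30.7% of the cells in WT2, 43.3% in WT3 and 25.2% in WT4, and in 26.5% and 25.0% in KO4 and KO5. Detection in neuronal cells outside the cycle is given as a background for such shares, and its source was not tested. *Eomes* was detected in 24.0%, 23.3% and 18.54% of the WT cells and in 15.2% and 11.5% of the KO cells, against 5.21% to 6.14% of the neuronal cells outside the cycle in the 5 libraries, at median depths of 2286 to 4923.5 UMIs. *Neurog2* was detected in 18.9% to 36.7% of the cycling cells and in 8.26% to 12.9% of those neuronal cells. In WT2, WT3 and WT4, cells with *Eomes* or *Neurog2* had a summed radial glia level of 71.2, 61.0 and 44.7, and cells with neither these genes nor oligodendrocyte markers 135, 206 and 155. In KO4 and KO5 the order was turned, with 117 and 103 against 62.3 and 69.9. This pattern was seen after the values were known and was not tested.

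Precursors of oligodendrocytes made up another fraction. At least 2 of their markers were detected in 14.7%, 7.78% and 31.1% of the cells in the WT, and in 11.4% and 1.92% in the KO (exact 95% binomial intervals from 3.18 to 15.4% in WT3 and from 23.8 to 39.2% in WT4, so the WT libraries themselves differed). *Olig1*, a basic helix-loop-helix gene of the oligodendrocyte lineage, was detected in 29.3%, 23.3% and 43.0% of the WT cells and in 25.0% and 5.77% of the KO cells, against 2.89% to 6.92% of the neuronal cells outside the cycle. The KO5 share lay in this background range. *Pdgfra*, the growth factor receptor gene of these precursors, was detected in 17.9% of the WT4 cells and in 1.92% to 5.56% in the other 4 libraries. In the library labelled WT5, 0 of 38 cells held 2 markers, which allows a share of up to 7.89% by a limit of 3 counts and of up to 9.25% by the exact 95% interval.

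Other cell types contributed few cells. At least 4 microglial markers were detected in 1, 1, 4, 4 and 0 cells and at least 4 endothelial markers in 4, 0, 3, 2 and 0 cells of WT2, WT3, WT4, KO4 and KO5. The summed level of the microglia list was 0.169 to 7.30 in the WT and 0.597 and 1.67 in the KO libraries, and that of the endothelial list 0.947 to 7.07 and 1.20 and 1.43. The choroid plexus list summed to 0, 0.688 and 1.37 in the WT and to 0.0351 and 0 in the KO, and the ependymal list to 0.046, 0 and 0.126 and to 0.683 and 0.0485. Most cells had more mitosis than S phase UMIs, from lists of 51 and 33 genes that differ in size and level. In WT2, WT3, WT4, KO4 and KO5, 7, 6, 19, 3 and 4 cells had more S phase UMIs. The rule genes are mitotic, and how far the rule covers cells in early S phase was not tested.

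For shares, the 2 genotypes were set against each other by an exact permutation test (2-sided) over the 10 possible splits of 3 against 2 libraries, in which no p can be under 0.1. Adjusted values are over the 6 quantities tested. The cells made up 6.33%, 5.57% and 2.45% of kept cells in the WT and 3.14% and 2.26% in the KO. The exact 95% intervals were 5.01 to 7.87%, 4.50 to 6.80%, 2.08 to 2.86%, 2.64 to 3.72% and 1.69 to 2.95%, in the same order, and cover counting error only. WT4 lay within the KO range and apart from the other WT libraries. The mean was 4.78% ± 2.06 (SD, n = 3) in the WT and 2.70% ± 0.6252 (SD, n = 2) in the KO, which did not pass the exact permutation test (p = 0.3, adjusted p = 0.4). With 2 cycle genes required in place of 3, the means were 7.61% and 9.28% and the order turned (exact permutation p = 0.7).

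Of all cycling cells, the Dlx-negative fraction was larger in both KO libraries. It was 50.3%, 52.9% and 31.5% in the WT and 67.0% and 74.3% in the KO, with a mean of 44.9% ± 11.7 (SD, n = 3) and 70.6% ± 5.15 (SD, n = 2). The groups did not overlap, and p was 0.1, the smallest the exact permutation test can give here (adjusted p = 0.3). When cells with at least 4 of the 5 neuronal genes were left out of all cycling cells, it was 49.6%, 50.7% and 28.7% in the WT and 70.4% and 79.4% in the KO (exact permutation p = 0.1). This fraction alone does not tell fewer Dlx cells from more Dlx-negative cells. Cycling Dlx cells were 67 of 1185, 74 of 1617 and 288 of 6173 kept cells in the WT. In the KO they were 40 of 4201 and 16 of 2303. The Dlx-negative cells were no larger a part of kept cells in the KO, as given above. The cause of these shares was not tested. The Dlx-negative fraction was 67.9% in the library labelled WT5, 85.7% in KO1 and 53.6% in KO2. Neither the fraction with *Eomes* or *Neurog2* (33.1% ± 9.32, SD, n = 3, against 25.8% ± 1.07, SD, n = 2, exact permutation p = 0.4, adjusted p = 0.4) nor that with oligodendrocyte markers (17.9% ± 12 against 6.64% ± 6.68, exact permutation p = 0.4, adjusted p = 0.4) passed. Since depth differed, each cell was also thinned to 1800 UMIs before the rule was applied, which left out 1 shallower cell in WT2. The thinned shares with *Eomes* or *Neurog2* were 26.9%, 27.6% and 18.7% in the WT and 14.8% and 21.6% in the KO (exact permutation p = 0.3), and the thinned Dlx-negative fractions were 54.9%, 64.4% and 41.7% in the WT and 74.6% and 78.7% in the KO (exact permutation p = 0.2).

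The median depth per cell, with means of 4806 ± 1365 UMIs (SD, n = 3) and 2544 ± 252 UMIs (SD, n = 2), gave an exact permutation p of 0.2 (adjusted p = 0.4). The log2 ratio of the summed S phase to the summed mitosis list was -2.05 ± 0.042 (SD, n = 3) in the WT and -2.17 ± 0.053 (SD, n = 2) in the KO. Its exact permutation p was 0.1 (adjusted p = 0.3), and with each cell thinned to 1800 UMIs the difference turned from -0.13 to 0.29.

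**Figure D3:**
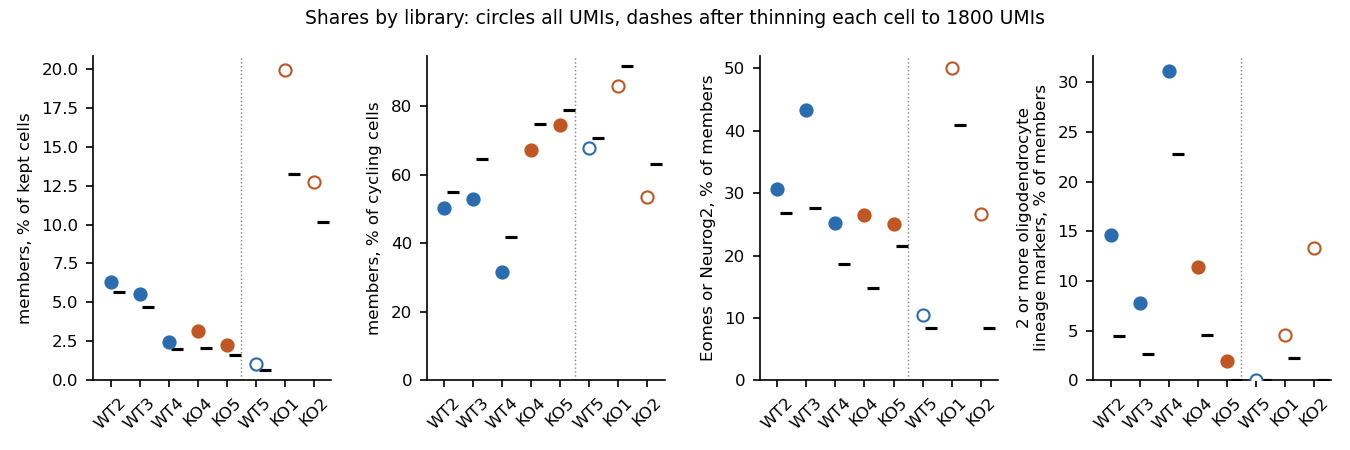
Per-library shares (y axes, percent) of cycling Dlx-negative cells among kept cells, of Dlx-negative cells among cycling cells, and of cells with *Eomes* or *Neurog2* and with oligodendrocyte markers among the cycling Dlx-negative cells. The panels call the cycling Dlx-negative cells members. Circles use all UMIs, filled for the 5 libraries compared, and dashes cells thinned to 1800 UMIs. For the Dlx-negative fraction KO4 and KO5 (67.0% and 74.3%) lie above WT2, WT3 and WT4 (31.5% to 52.9%).

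Gene expression in the cells was compared between KO4 and KO5 and WT2, WT3 and WT4 with limma on log2(mean level + 1), over 3551 genes with a level of at least 0.5 in 2 or more libraries. A gene is referred to as called where its Benjamini-Hochberg adjusted p was below 0.05. There were 427 called genes, or 12% of those tested, of which 135 (3.80%) were higher and 292 (8.22%) lower in the KO. The cycle genes that chose the cells pass this filter and were not taken out of the fit. They can thus add to the counts over all genes, and a call of such a gene would be no independent evidence. The median log2 difference of all genes was -0.09. The split depended on the tool. On summed UMIs, edgeR called 169 genes (4.76%), 106 higher (2.99%) and 63 lower (1.77%), and DESeq2 called 129 (3.63%), 85 higher (2.39%) and 44 lower (1.24%). All 3 tools called 116 genes, 78 higher and 38 lower.

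These calls rest on the choice of libraries. With the library labelled WT5 added to the WT, limma called 0 genes (212 had an unadjusted p under 0.05). The labels number the libraries and name no pairs. With the number used as a block (WT2, WT4 and WT5 against KO2, KO4 and KO5), limma called 2 genes. They were *Mt2* (log2 difference 1.14, SE 0.198, adjusted p = 0.026) and *Pam* (1.13, SE 0.214, adjusted p = 0.0404). Both were higher in the KO and neither was of the cycle, radial glia or neuronal lists. Without WT4, 780 genes were called. Without KO5, the male library, 36 were, with KO4 alone assumed to vary as the WT libraries do. WT5 lay beyond all 3 WT libraries on the KO side for 128 of the 135 higher genes and 281 of the 292 lower genes, against 23.5% and 49.6% of all genes tested. KO1 lay above all 3 WT libraries for 47 of the 135 higher genes and below them for 42, and below them for 185 of the 292 lower genes, against 25.3% above and 46.7% below for all genes tested.

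Genes of DNA replication were lower in the KO. Of 24 tested genes of 33 in the S phase list, 17 were called lower and none higher, against 8.22% of all genes called lower, and their median log2 difference was -0.55. The filter can pass a gene through the WT alone. Among the 18 list genes that reached a mean of 0.5 over the 5 libraries, 15 were called lower, against 8.67% of all such genes. The summed level of the 33 genes, which needs no filter, was 32.6, 41.0 and 28.2 in the WT and 14.2 and 12.4 in the KO. By summed UMIs, edgeR called 7 of these genes and DESeq2 5, against 4.76% and 3.63% of all genes (either direction). In non-cycling cells the 24 genes had a median of 0.005, with summed levels of 7.17 to 8.71 in the WT and 7.48 and 8.58 in the KO.

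*Pcna*, encoding the sliding clamp of the DNA polymerases, was at 1.36, 1.93 and 1.04 in the WT and at 0.338 and 0.431 in the KO libraries. Its log2 difference was -0.80 (SE 0.161, limma adjusted p = 0.0015), and the groups did not overlap, as for 31.8% of all genes tested in this direction. *Rrm2*, the small subunit of ribonucleotide reductase, which makes deoxynucleotides, was at 3.65, 7.62 and 3.10 in the WT and at 1.53 and 1.52 in the KO (log2 difference -1.12, SE 0.278, limma adjusted p = 0.0292). *Lig1*, the ligase that joins Okazaki fragments, was at 2.69, 1.36 and 1.08 against 0.436 and 0.125. WT2 was the highest library for *Lig1* and WT3 for *Rrm2*, while both KO libraries stayed below each WT library. The helicase subunits *Mcm2*, *Mcm3*, *Mcm6* and *Mcm7* were called lower too, with log2 differences from -0.54 to -0.59. *Dut* (2.60, 4.10 and 3.46 against 2.68 and 1.85), which removes dUTP, overlapped and was not called (limma adjusted p = 0.125).

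Mitosis genes were lower as a broad group. The list was made without the 6 cycle genes of the rule, but its genes are transcribed together with them. Of 48 tested genes of 51, 40 were called lower and none higher, against 8.22% of all genes called lower. The median log2 difference was -0.63. Of 45 that reached a mean of 0.5 over the 5 libraries, 37 were called lower. Its summed level was 135, 174 and 113 in the WT and 65.7 and 54.5 in the KO. The library labelled WT5 was lowest at 34.7, KO1 was at 108 and KO2 at 79.8. EdgeR called 17 of these genes and DESeq2 13, against 4.76% and 3.63% of all genes (either direction). The same lists differed in the cycling Dlx cells, where mitosis summed to 155, 176 and 152 in the WT and to 70.1 and 52.2 in the KO, and S phase to 39.6, 59.4 and 43.7 and to 12.9 and 14.0.

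*Smc4* (chr3:69004738-69034623, GRCm38), a subunit of the condensin complex that compacts chromosomes, had the largest fall of all genes named by the rule. It was at 4.94, 5.96 and 3.44 in the WT and at 1.69 and 0.646 in the KO (log2 difference -1.43, SE 0.219, limma adjusted p = 0.000368). *Smc2*, its partner, was at 4.44, 6.14 and 3.27 against 1.89 and 1.57. *Ccna2*, encoding cyclin A2, which acts in S phase and G2, was at 2.96, 4.13 and 2.23 against 0.748 and 1.08 (-1.08, SE 0.186, limma adjusted p = 0.000362). In each of these genes the groups did not overlap. *Hmgb2*, the gene that set the cells apart most from non-cycling cells, was at 27.6, 37.8 and 22.0 in the WT and at 12.8 and 11 in the KO (-1.19, SE 0.208, limma adjusted p = 0.000392). Of the mitotic kinases, *Cdk1* (-0.74), *Aurka* (-0.55), *Plk1* (-0.50) and *Bub1* (-0.65) were called lower. The replication-linked histone genes *Hist1h1b* and *Hist1h2ap* were called lower as well, with log2 differences of -1.19 and -1.30 (*Hist1h1b* had no UMI in KO5).

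The 2 groups of cycle genes fell beside a change in the make-up of the cells. Cells with exactly 3 cycle genes, cells with neuronal genes and shallow cells were more frequent in the KO, as given above. Among cells with at least 4 cycle genes, the mitosis list summed to 149, 196 and 147 in the WT and to 90.0 and 90.6 in the KO, and 13 of its genes and 8 S phase genes were called, against 4.17% of all genes (1.73% higher and 2.44% lower). With all cells thinned to 1800 UMIs it summed to 155, 210 and 158 and to 72.0 and 54.8, and 37 and 7 were called, against 8.78% of all genes (3% higher and 5.78% lower). Without cells that held at least 4 of the 5 neuronal genes it summed to 143, 182 and 120 and to 72.5 and 61.3, and 27 and 12 were called, against 7.35% of all genes (2.59% higher and 4.76% lower). The KO libraries lay below the WT libraries under each of these 3 choices. Whether fewer dividing cells among those that met the rule, or less of these transcripts per dividing cell, gave the lower levels cannot be told apart.

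Regulators of the G1 phase and of cycle exit moved less uniformly. Over all genes, 8.22% were called lower and 3.80% higher. Of 6 tested G1 cyclin and kinase genes, *Ccne2*, encoding cyclin E2, was called lower and none higher. *Ccnd2* was at 24.3, 12.2 and 7.57 in the WT and at 4.49 and 5 in the KO, and was not called (log2 difference -1.31, SE 0.514, limma adjusted p = 0.204), as the 3 WT libraries differed widely. Of 9 inhibitor and exit genes, *Cdkn1b*, the gene of the kinase inhibitor p27, was called higher and *Cdkn2c*, the gene of p18, lower. *Cdkn1b* was at 0.824, 1.72 and 1.01 against 3.06 and 3.94 (1.06, SE 0.182, limma adjusted p = 0.000343). In non-cycling cells its log2 difference was 0.95, and the test of the difference between the cell groups did not pass (limma adjusted p = 0.635).

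**Figure D4:**
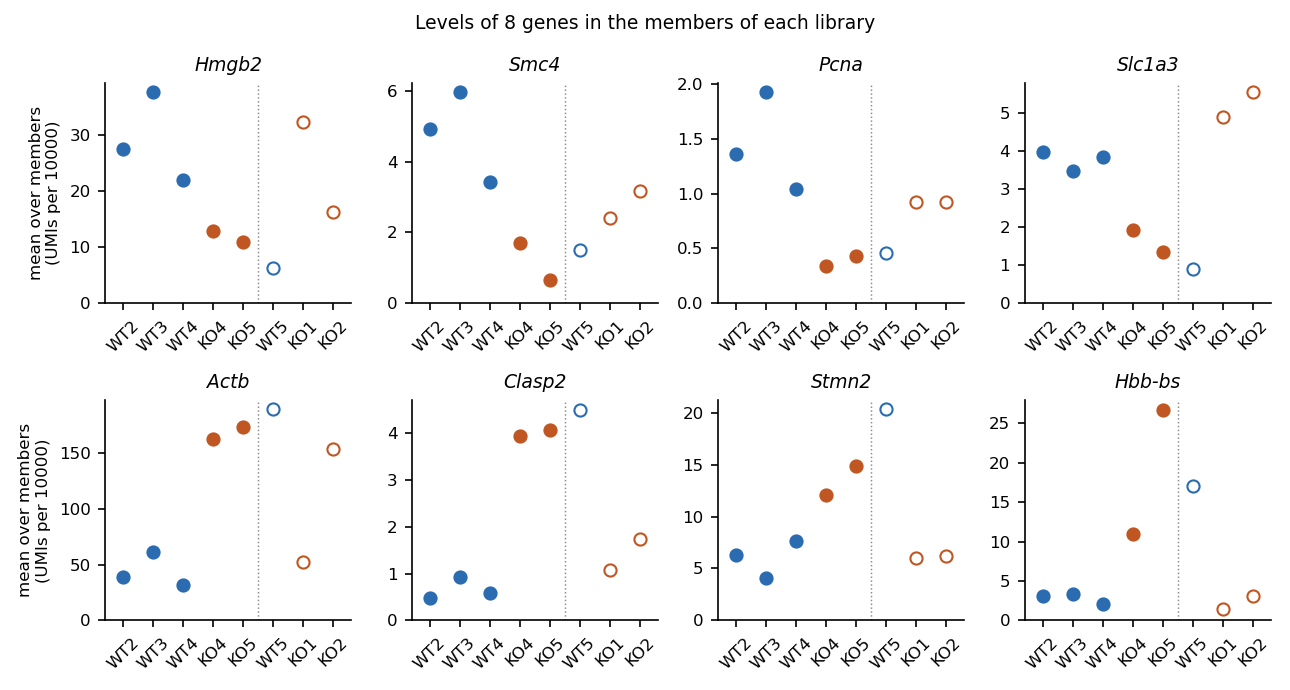
Levels (y axes, UMIs per 10000 UMIs of a cell) of named genes in the cycling Dlx-negative cells of each library. Filled circles are the 5 libraries compared and open circles WT5, KO1 and KO2, blue labelled WT and orange labelled KO. *Smc4* is at 3.44 to 5.96 in the WT and at 1.69 and 0.646 in the KO, and WT5 lies with the KO libraries.

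Radial glia genes were lower in part. Of 17 tested of 19, 8 were called lower and none higher, against 8.22% of all genes called lower. The median log2 difference was -0.46. The summed level was 113, 139 and 125 in the WT and 79.6 and 77.3 in the KO, with 66.0 in WT5, 157 in KO1 and 153 in KO2. *Pax6*, the transcription factor gene of dorsal radial glia, was at 2.39, 2.01 and 1.49 in the WT and at 0.652 and 0.850 in the KO (-0.75, SE 0.168, limma adjusted p = 0.0046). It was detected in 50.7%, 60.0% and 46.4% of the WT cells and in 17.4% and 15.4% of the KO cells, against 6.74% to 8.39% of the neuronal cells outside the cycle. *Slc1a3* was at 3.98, 3.49 and 3.85 against 1.94 and 1.34 (-0.86, SE 0.175, limma adjusted p = 0.00169), and *Ptprz1*, a receptor phosphatase gene of glial progenitors, at 6.51, 10.7 and 9.96 against 4.11 and 3.27 (-1.08, SE 0.192, limma adjusted p = 0.000507). *Fabp7* was at 52.8, 69.6 and 56.5 against 35.4 and 36.1 (-0.71, SE 0.205, limma adjusted p = 0.0223). *Vim* overlapped between the genotypes (5.56, 5.17 and 6.45 against 5.60 and 3.41) and was not called (limma adjusted p = 0.268). The list was the less stable one. EdgeR called 2 of its genes, against 4.76% of all genes. Among cells with at least 4 cycle genes 2 were called, against 4.17% of all genes. The summed levels overlapped there (110, 134 and 136 against 94.2 and 122).

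Of 9 tested intermediate progenitor genes, *Hes6*, *Insm1* and *Mfng* were called lower and none higher. For this list and the Notch list below, the shares over all genes were 8.22% lower and 3.80% higher. *Eomes* itself was at 1.06, 1.04 and 0.864 against 0.512 and 0.703 and was not called (-0.31, SE 0.148, limma adjusted p = 0.165), nor was *Neurog2* (-0.50, SE 0.187, limma adjusted p = 0.0793). In the Notch pathway, which keeps radial glia from differentiating, 8 genes were tested. The receptor *Notch1*, the mediator *Rbpj*, the modifier *Mfng* and the target *Hes5* were called lower, whereas the receptor *Notch2* was called higher (0.420, 1.48 and 0.480 against 3.08 and 2.81, log2 difference 1.19, SE 0.204, limma adjusted p = 0.00109). *Hes5* was at 1.61, 1.35 and 2.23 against 0.842 and 0.654.

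*Tcf4* was at 8.93, 9.52 and 9.81 in the cycling Dlx-negative cells of WT2, WT3 and WT4 and at 8.50 and 7.51 in KO4 and KO5. It was not called (log2 difference -0.21, SE 0.177, limma adjusted p = 0.454). In non-cycling cells the log2 difference was -0.55, and the test of the difference between the cell groups gave a limma adjusted p of 0.0948. The choice of libraries drew in part on *Tcf4*, so its values describe the libraries and are no independent evidence. Of the other E-protein and Id genes, *Tcf3*, another E-protein gene, and *Id3*, encoding an inhibitor that binds E-proteins, were called lower. With *Tcf4*, 6 genes of this list were tested, and 8.22% of all genes were called lower. *Id3* was at 2.86, 2.03 and 3.26 against 0.932 and 0.629 (-1.05, SE 0.176, limma adjusted p = 0.000224). *Id1* had a log2 difference of -0.73 (limma adjusted p = 0.0995) and *Id2* one of -0.16 (limma adjusted p = 0.628).

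Neuronal genes were higher in the KO cells. Of 9 tested genes of glutamatergic neurons, 5 were called higher, among them *Tubb3*, *Stmn2*, *Neurod2* and *Mef2c*, and none lower, against 3.80% of all genes called higher, and the median log2 difference was 0.60. *Mef2c*, a transcription factor gene of cortical neurons, was at 1.86, 1.79 and 1.97 in the WT and at 5.78 and 7.32 in the KO (1.39, SE 0.173, limma adjusted p = 3.69e-06). *Stmn2*, a regulator of microtubules in growing axons, was at 6.32, 4.04 and 7.60 against 12 and 14.9 (1.08, SE 0.203, limma adjusted p = 0.00109). The list summed to 26.4, 25.1 and 29.4 in the WT and to 45.4 and 56.2 in the KO cells, whereas non-cycling cells were at 83.3, 76.2 and 80.3 and at 74.2 and 73.8. Thus in the summed list the KO libraries lay above the WT in cycling cells and below it in non-cycling cells. Single genes differed in this. In non-cycling cells the log2 difference was 0.42 for *Mef2c* and 0.21 for *Stmn2*, which were higher in the KO there too. It was -0.39 for *Tubb3*, -0.31 for *Neurod2* and -0.31 for *Neurod6*. Without cells that held at least 4 of 5 neuronal genes, which removes part of the same list by construction, the sums were 22.9, 19.1 and 21.5 against 34.9 and 46.9.

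Genes outside the neuronal list rose as well. *Actb*, encoding cytoplasmic β-actin, was at 39.2, 61.2 and 31.4 in the WT and at 163 and 173 in the KO (log2 difference 1.97, SE 0.238, limma adjusted p = 3.84e-06). It was at 154 in KO2, beside KO4 and KO5, whereas WT5 (189) and KO1 (52.1) went against their labels. *Clasp2*, a gene for a protein that stabilizes microtubule ends, was at 0.473, 0.930 and 0.596 against 3.94 and 4.08 (1.60, SE 0.168, limma adjusted p = 4.50e-07), and *Ncam1*, a cell adhesion gene, at 3.25, 3.39 and 3.15 against 11 and 12.3 (1.57, SE 0.170, limma adjusted p = 4.50e-07). *Nfia*, a transcription factor gene of gliogenesis, was at 4.27, 5.62 and 4.03 against 12.1 and 12 (1.22, SE 0.178, limma adjusted p = 3.46e-05). These genes differed by about as much in non-cycling cells, with log2 differences of 1.71 for *Actb*, 1.60 for *Clasp2*, 1.29 for *Ncam1* and 1.23 for *Nfia*. Of 11 genes taken from earlier results on upper layer cells of these libraries, 5 were called higher here, which is no independent evidence.

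Blood transcripts were higher in the 2 KO libraries compared. Of 4 tested erythroid genes, *Hbb-bs* and *Hba-a2* were called higher. *Hbb-bs* was at 3.10, 3.34 and 2.14 in the WT and at 10.9 and 26.7 in the KO (2.25, SE 0.365, limma adjusted p = 0.0145), and the erythroid list summed to 4.30 to 6.79 and to 21.3 and 58.4. It did not follow the labels elsewhere, with 36.1 in WT5, 2.82 in KO1 and 6.37 in KO2. Their part in the other differences was not tested. Of 81 ribosomal protein genes tested, 4 were called higher and none lower, against 3.80% and 8.22% of all genes. Their median log2 difference was 0.27. *Slc1a2* of 3 astrocyte genes was called lower and *Jund* of 4 immediate early and heat shock genes higher. No gene was called among 3 of the GABAergic lineage, 2 of oligodendrocyte precursors and 1 each of endothelium, mural cells, microglia and choroid plexus. For ependymal and Cajal-Retzius cells no gene passed the filter.

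**Figure D5:**
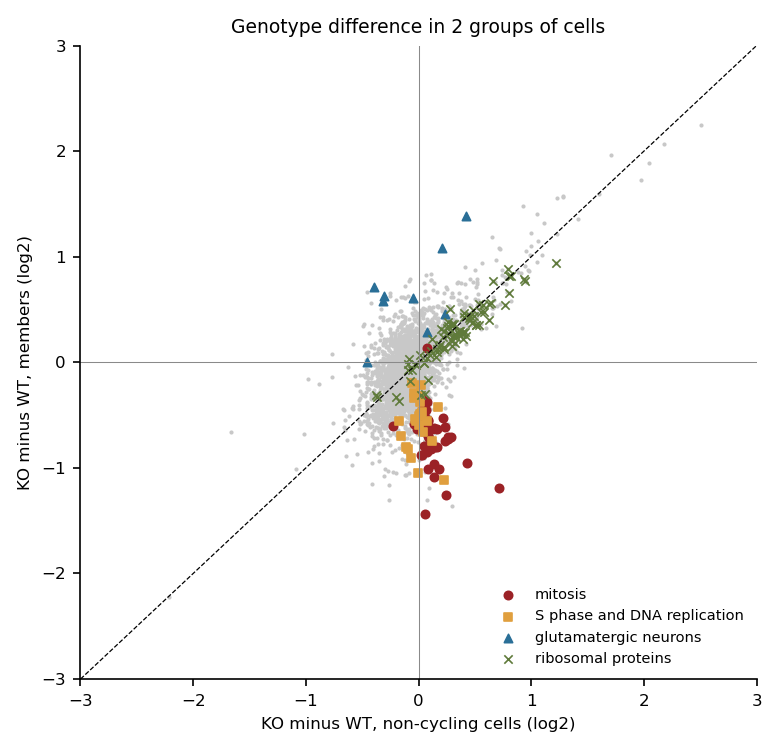
Log2 difference of KO4 and KO5 from WT2, WT3 and WT4 in non-cycling cells (x axis) and in cycling Dlx-negative cells (y axis, members), 1 point per gene tested, without the 10 genes of the rule. Coloured points are genes of the lists named in the key. Mitosis genes lie near 0 on the x axis (median 0.08) and below it on the y axis (median -0.63).

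Whether the genotype difference was larger in cycling Dlx-negative than in non-cycling cells was tested per gene on the differences between both kinds of cell within each library. It differed for 334 genes (9.41% of 3551), with 148 (4.17%) more and 186 (5.24%) less in the KO relative to non-cycling cells. Among them were 37 of the mitosis list. The cycle genes of the rule were kept in this fit too, and non-cycling cells have none of their UMIs by definition. For these genes the test only repeats the comparison within the cycling cells. Many genes of the mitosis list, which are transcribed with them, also lie near 0 in non-cycling cells. *Ccna2*, for example, was at 0.0315 to 0.159 there. Its genotype difference differed by -1.22 between the cell groups and was -1.08 within the cycling Dlx-negative cells. For such genes the test adds little to that comparison. The count depended on the settings. With a pseudocount of 0.1, limma called 0 genes (767 had an unadjusted p under 0.05, smallest adjusted p = 0.0503), and without KO5 it called 16, with KO4 as the lone KO library. *Hmgb2* had a log2 difference of -1.19 in the cycling Dlx-negative cells and of 0.71 in non-cycling cells, which differed by -1.90 (SE 0.340, limma adjusted p = 0.00205). *Tubb3* went the other way, with 0.72 and -0.39, which differed by 1.11 (SE 0.194, limma adjusted p = 0.00177), followed by *Mllt11* (0.98) and *Mef2c* (0.96). *Cd24a*, a surface protein gene of young neurons, differed by 1.12. Of the 292 genes called lower, 159 were among the 334, and of the 135 called higher, 41 were. Against cycling Dlx cells no gene differed in limma (428 had an unadjusted p under 0.05, smallest adjusted p = 0.162), although without KO4 609 genes did. That fit had KO5 as its lone KO library, with 16 cycling Dlx cells, and took the spread from the WT libraries.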

How the data were processed

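Single-cell RNA of neocortices of 9 embryos at E18.5, 5 labelled WT and 4 labelled KO, was captured by the authors with the 3′ v2 kit of the Chromium system. The submitters' processing notes name Cell Ranger 2.1.0, Seurat 2.3.4 and R 3.6.0, and the genome was GRCm38 with Ensembl annotation. The authors deposited plain UMI counts of each gene in each cell for 4 libraries (WT4, KO4, WT5 and KO5). The other 5 libraries were deposited by the authors as natural log values, ln(1 + UMIs scaled to 10000 per cell), and whole UMIs were computed back from them (100% of values within 1e-06). Genes not listed for a library were taken as 0. Libraries were grouped by their labels. The members, gene lists and tests were chosen with earlier results of these data known.

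Cells with over 1% haemoglobin UMIs were left out. Levels are means over cells of UMIs per 10000. The test was limma-trend 3.58.1 with robust variances (R 4.3.3) on log2(level + 1), for genes at 0.5 or more in at least 2 of 5 libraries, with Benjamini-Hochberg adjustment over all genes tested. The number of libraries, 3 against 2, limits precision. The embryo is the replicate. Alternatives were edgeR 4.0.16 and DESeq2 1.42.0 on summed UMIs, a pseudocount of 0.1, other filters, 2 or 4 cycle genes, thinning of each cell to 1800 UMIs, the cell limits of the study, and leaving out cells with *Eomes* or *Neurog2*, cells with at least 4 of 5 neuronal genes (chosen after the data were seen) or the highest 5% of Scrublet scores. The threshold of Scrublet itself marked no cell in KO4 and KO5, so doublets were otherwise kept. Single values of the libraries were tested by exact permutation, 2-sided, in Python 3.11.15 (scipy 1.17.1). Intervals of shares are exact (Clopper-Pearson).

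Named genes are those of the rule, the 4 most abundant and all called genes of each list, up to 10 called genes with the largest rise and fall that had 50 UMIs or more and genotypes that did not overlap, up to 10 genes that set the cells apart from other cells, and 11 genes named earlier in upper layer cells. Some genes that entered the lists and counts are not reported here by name. *Mt2*, *Mllt11* and *Cd24a* were added after their values were seen. In simulated data with a log2 change of 1, limma recovered 25.6% of 180 changed genes among 3535, edgeR 23.9% and DESeq2 13.3%.

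Libraries with the same number in their labels were checked for pairing. Their deviations from the mean of each genotype were correlated over 761 genes. The r was 0.609 for WT2 with KO2, 0.196 for WT4 with KO4 and 0.499 for WT5 with KO5. It was -0.506 to 0.276 for other pairs, so WT5 with KO4 (0.276) exceeded WT4 with KO4. The numbers were used as a block in an alternative fit, although the labels name no pairs. Promoter sequences are from RefSeq on GRCm38.p6 and gene positions from GENCODE on GRCm38, matched by symbol.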

Additional observations from a re-analysis of the deposited data

Results flagged for a closer look

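Of 208 groups of libraries tested for a value far from the others, 27 held one. The chance for a single group is about 1 in 20. Named genes include genes called between WT2, WT3, WT4 and KO4, KO5, and genes of a list can vary together. The count of 27 is thus a description and no test. In 16 of the 27 the far library was that labelled WT5 among the libraries labelled WT. Its levels in the cycling Dlx-negative cells, in UMIs per 10000, were high for *Clasp2* (4.51), *Dpysl2* (24.0), *Hba-a2* (5.65), *Hbb-bs* (17.0), *Mef2c* (9.79), *Ncam1* (13.7), *Runx1t1* (5.46) and *Tubb3* (15.9). They were low for *Birc5* (0.916), *Cks1b* (0.910), *Clspn* (0.0659), *Hist1h1b* (0), *Incenp* (0.377), *Knstrn* (0.297), *Mfge8* (0.520) and *Slc1a3* (0.903). For each of these 16 genes WT5 lay on the side of KO4 and KO5. WT3 stood apart for *Bub1* (1.41).

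Among the libraries labelled KO, KO1 stood apart for *Actb* (52.1), *Bub3* (3.75), *Cenpe* (2.48), *Cks1b* (5.21), *Kif22* (0.976) and *Smc2* (4.35), on the side of WT2, WT3 and WT4. KO1 also stood apart for the share of cells with *Eomes* or *Neurog2* (50%). It lay above each of the libraries compared, whose genotypes overlapped in this share. KO2, with 15 cells, stood apart for *Aurka* (1.79), *Cdkn2c* (0) and *Nuf2* (0.477).

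The genotype difference differed between cycling Dlx-negative and non-cycling cells for 334 genes in limma at an adjusted p under 0.05. The cycle genes of the rule were kept in this fit.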

How the results depend on the processing

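The count of 427 called genes was 88 with no filter on low levels, 169 by edgeR with TMM, 185 by edgeR with DESeq2-type size factors and 129 by DESeq2. It was 152 with at least 4 cycle genes and 264 without cells holding at least 4 of 5 neuronal genes. With WT5 added, limma called 0 (212 at an unadjusted p under 0.05), and with all libraries of at least 10 such cells 0 (229). Leaving out 1 library gave 36 (without KO5) to 780 (without WT4). With the replicate block 2 were called, and the same 6 libraries without the block gave 0 (97 at an unadjusted p under 0.05). The block held *Aurka* at 0.0493, *Bub3* at 0.0102, *Mfge8* at 0.024, *Hes6* at 0.017 and *Tubb3* at -0.0349 (log2), all of the other sign than in the 5 libraries, and all libraries as labelled did so for *Cks1b* (0.0224), *Notch1* (0.0308), *Slc1a3* (0.0922), *Tubb3* (-0.14) and *Neurod2* (-0.0297). The 334 genes with a different genotype difference in non-cycling cells became 0 with a pseudocount of 0.1 and 122 with a filter of 0.1, and 16 (without KO5) to 552 (without KO4) when 1 library was left out. Against cycling Dlx cells, leaving out 1 library gave 0 to 609 (without KO4). In the thinned cells KO5 had too few cycling Dlx cells and was left out of that fit. Fits without KO4 or KO5 have 1 KO library, assumed to vary as the WT libraries do. The cause was not tested in any of these.

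Of the 6 values per library, 71 alternatives kept the direction within the spread or the side of the threshold, and 6 turned the direction. The difference in the share of kept cells was 1.66 percentage points with at least 2 cycle genes and 5.65 with all libraries. That in cells with *Eomes* or *Neurog2* was 0.958 without neuronal cells and 4.62 with all libraries. That in the log2 ratio of S phase to mitosis was 0.0588 with at least 2 cycle genes and 0.29 in thinned cells. The p of these values cannot go under 0.1, so they say nothing about stability. Between 15 and 151 cells per library, at medians of 2365.5 to 5937 UMIs in the 5 libraries, limit genes of low level.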

Other observations

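The cycling Dlx-negative cells of the libraries outside the main comparison had levels of their own. In KO1 (66 cells) the mitosis list summed to 108 and the S phase list to 19.5 UMIs per 10000, and in KO2 (15 cells) to 79.8 and 16.2. In WT5 (38 cells) they summed to 34.7 and 7.25, below KO4 and KO5. *Tcf4* in the same cells was at 14.6 in KO1, 9.47 in KO2 and 6.98 in WT5. The cells were 19.9% of kept cells in KO1, 12.7% in KO2 and 1.05% in WT5.

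*Notch2* reached 6.70 in KO2, against 0.420 to 1.48 in WT2, WT3 and WT4. *Ttr*, the most abundant transcript of choroid plexus, was at 0.688 and 1.34 in WT3 and WT4 and at 0 in the other libraries with at least 15 such cells.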
